A study of Mus musculus with 7 samples.

Results

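Promoter sites outside CpG islands and shores are single cytosines that the authors placed in a promoter and in neither an island nor its flanking shore. They were chosen by those 2 annotations alone, with no measured value in the rule, though earlier results of these data were known. They made up 1952 of the 18189 sites in the rescue table and 2393 of the 21989 sites in the knockdown table, and 1412 of them are in both tables. They lie within 1001 bases of 663 listed transcript starts in the rescue table and of 790 in the knockdown table. A start had a median of 2 such sites and at most 29.

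Most mammalian CpGs outside islands are methylated, while CpG islands at active or poised promoters usually are not. After DNA replication UHRF1 binds hemimethylated CpGs and recruits the maintenance methyltransferase DNMT1, so that the new strand takes the pattern of the old one. CpG-poor promoters hold few CpGs, many of them serve genes used in 1 tissue only, and in embryonic stem cells such promoters are often methylated. MOF is a lysine acetyltransferase, best known for acetylating histone H4.

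The assay was reduced representation bisulfite sequencing (RRBS) with a double-enzyme digest, which enriches CpG-rich fragments and reads unmethylated cytosines as thymines. All libraries came from J1 mouse embryonic stem cells grown in serum with leukemia inhibitory factor. The rescue table holds Uhrf1-/- cells given human UHRF1 with the substitutions K667R, K668R and K670R (3KR rescue, 1 library), Uhrf1-/- cells given wild-type human UHRF1 (wild-type rescue, 1 library), Uhrf1-/- cells (2 libraries) and wild-type cells (2 libraries). The knockdown table holds a stable Mof knockdown (1 library) beside the same 2 wild-type libraries. Each rescue was a single hygromycin-selected colony, so a property of that clone and the effect of its UHRF1 cannot be told apart. Methylation reads carry no expression, so the knockout, the knockdown and the rescue proteins were not checked here. The series title sets the question: what MOF-mediated acetylation of UHRF1 does to the upkeep of DNA methylation.

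RefSeq promoter windows of 5 genes (GRCm38.p6, the assembly also called mm10) show what these sites look like. Each runs 300 bases, from 250 before to 50 after a RefSeq start, 5′ to 3′ on the gene's strand, and capitals mark the CpGs measured in the rescue table. They were picked to show a promoter lost in Uhrf1-/- cells (Qrich2), 1 that the wild-type rescue left low (Psd4), 1 that it took above wild type (Nphs1), 1 low in every library (Dhrs4) and 1 higher in Uhrf1-/- cells (2810405F15Rik).
Qrich2, chr11:116454298-116454597, minus strand: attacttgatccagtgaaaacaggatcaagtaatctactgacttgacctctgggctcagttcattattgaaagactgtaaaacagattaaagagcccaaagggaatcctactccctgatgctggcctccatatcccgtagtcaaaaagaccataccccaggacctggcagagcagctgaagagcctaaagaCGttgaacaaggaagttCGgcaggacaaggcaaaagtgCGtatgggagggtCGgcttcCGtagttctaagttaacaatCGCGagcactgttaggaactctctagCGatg
Psd4, chr2:24386366-24386665, plus strand: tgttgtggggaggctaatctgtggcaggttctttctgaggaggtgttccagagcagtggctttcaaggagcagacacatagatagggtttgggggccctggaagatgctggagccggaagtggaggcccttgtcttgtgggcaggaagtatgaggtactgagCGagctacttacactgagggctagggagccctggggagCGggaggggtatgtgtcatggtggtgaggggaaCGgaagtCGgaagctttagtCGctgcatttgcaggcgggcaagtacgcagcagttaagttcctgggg
Nphs1, chr7:30459808-30460107, plus strand: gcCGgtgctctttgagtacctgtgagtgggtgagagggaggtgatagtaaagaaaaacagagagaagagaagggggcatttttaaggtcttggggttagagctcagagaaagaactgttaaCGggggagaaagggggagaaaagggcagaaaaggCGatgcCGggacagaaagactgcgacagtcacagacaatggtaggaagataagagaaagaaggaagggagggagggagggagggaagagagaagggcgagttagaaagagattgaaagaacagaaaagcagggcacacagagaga
Dhrs4, chr14:55478508-55478807, plus strand: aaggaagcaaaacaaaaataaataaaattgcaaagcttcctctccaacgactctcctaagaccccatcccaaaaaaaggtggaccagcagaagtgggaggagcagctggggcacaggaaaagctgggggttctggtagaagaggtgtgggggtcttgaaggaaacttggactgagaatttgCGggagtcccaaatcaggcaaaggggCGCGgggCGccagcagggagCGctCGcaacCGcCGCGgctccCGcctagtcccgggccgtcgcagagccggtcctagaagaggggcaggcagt
2810405F15Rik, chr2:116076047-116076346, minus strand: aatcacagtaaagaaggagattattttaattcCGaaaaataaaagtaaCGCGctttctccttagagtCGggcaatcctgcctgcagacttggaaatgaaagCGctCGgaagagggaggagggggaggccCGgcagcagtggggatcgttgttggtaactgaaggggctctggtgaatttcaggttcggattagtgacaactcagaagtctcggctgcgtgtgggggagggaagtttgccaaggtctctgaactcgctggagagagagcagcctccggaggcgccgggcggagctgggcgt

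Measured promoter sites fell in 36 such windows in the rescue table, and all 108 of them lay on a CG in the reference. The letters CCGG, a target of the enzymes often used for RRBS, occurred in 77.8% of those 36 windows and in 52.8% of all 32851 RefSeq windows. The E-box letters CACGTG occurred in 2.78% of the 36 windows and in 7.15% of all windows. These motifs read the same on both strands, CCGG contains CG, and a match is a description of the letters only.

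Within the window of Qrich2, a gene of the sperm flagellum, 8 of 9 CpGs were measured. Their mean methylation was 4.17% in the 3KR rescue, 41.7% in the wild-type rescue, 5.81% and 11.3% for Uhrf1-/- libraries, and 41.9% and 63.7% in the wild-type libraries. The Mof knockdown had 24.9% there, below both wild-type libraries. Low libraries were thus the 3KR rescue and both Uhrf1-/- libraries, and their values do not overlap those of the rest.

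The Psd4 window, at an ARF exchange factor gene, had 5 of 8 CpGs measured. Methylation was 0% in the 3KR rescue, 9.38% in the wild-type rescue, 6.04% and 0% for Uhrf1-/- libraries, and 50% and 73.4% in the wild-type libraries. Here the wild-type rescue sat near the Uhrf1-/- libraries and far under wild type. With 6 of its CpGs in the knockdown table, it had 6.67% in the Mof knockdown, against 44.0% and 70.4% in wild type.
The Nphs1 window, at the gene of nephrin in the kidney's filtration barrier, had 4 of 6 CpGs measured. Methylation was 4.0% in the 3KR rescue, 41.5% in the wild-type rescue, 0% and 3.13% for the Uhrf1-/- libraries, and 17.3% and 29.0% in the wild-type libraries. The wild-type rescue was above both wild-type libraries at these CpGs, and the Mof knockdown, at 17.35%, lay between them.

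At Dhrs4, a short-chain dehydrogenase gene, 10 of 15 CpGs were measured and no library mean exceeded 4.0%, with a highest single site of 40% in wild-type replicate 2. The 2810405F15Rik window had 7 of 17 CpGs measured, with 1.30% in the 3KR rescue, 9.56% in the wild-type rescue, 14.4% and 14.3% for Uhrf1-/- cells, and 3.17% and 5.38% in wild-type cells. The values in this window were highest in the Uhrf1-/- libraries. The Mof knockdown had 6.16% there, above both wild-type libraries.

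A pair of site sets stands apart from the rest. The mitochondrial genome gave 39 of the promoter sites in the rescue table and 43 in the knockdown table, with means of at most 1.46% in every library of the rescue table, so means are given with and without them. A pair of listed starts on chromosome 2 (98662265 to 98662795 with 13 sites, and 98666385 to 98667255 with 29 sites) had very deep and very uneven coverage. Reads over the 29 sites numbered 14420 in the 3KR rescue, 7471 in the wild-type rescue, 56958 and 82945 for Uhrf1-/- libraries, and 1310 and 6063 in the wild-type libraries. No RefSeq gene covers either start. Over all promoter sites of the class, total reads per library ran from 32753 to 155525 in the rescue table and from 37646 to 100016 in the knockdown table. The median site had 10 to 21 reads in the rescue table, so 1 read at a site with 10 reads moves its level by 10 points.

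Most of these starts do not lie at a RefSeq gene start. Of 656 nuclear starts in the rescue table, 208 (31.7%) lay within 200 bases of a RefSeq gene start, 272 lay inside a RefSeq gene on its strand, 97 inside a gene whose strand was not compared, 18 on the strand opposite to a gene and 61 outside RefSeq genes. The same share was 67.6% of 244 starts with promoter sites in islands and 58.2% of 737 starts with promoter sites in shores. The knockdown table had 252 of 782 nuclear starts (32.2%) at a RefSeq start.

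In Uhrf1-/- cells these promoter sites had 18.2% of the wild-type methylation level. All other sites of the rescue table had 19.7% of theirs (9.59% in Uhrf1-/- cells, 48.7% in wild-type cells). Mean methylation over the 1952 promoter sites was 9.13% and 10.01% in the Uhrf1-/- libraries, against 51.2% and 53.7% in the wild-type libraries. The means were 9.57% ± 0.62 in Uhrf1-/- cells and 52.5% ± 1.77 in wild-type cells (SD, n = 2 each), a difference of -42.9 points that ran from -44.6 to -41.2 over the library pairs. The groups did not overlap. With 2 libraries a group, the smallest p of an exact permutation test is 0.33 (two-sided), and the means were not tested. Over the 1913 nuclear sites the means were 9.75% ± 0.64 in Uhrf1-/- cells and 53.5% ± 1.83 in wild-type cells.

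Over the same 1952 sites the 3KR rescue averaged 15.6% and the wild-type rescue 49.98%. The wild-type rescue was 40.4 points above the Uhrf1-/- mean and differed by -2.48 points from the wild-type mean. The 3KR rescue differed by -34.4 points from the wild-type rescue and was 6.01 points above the Uhrf1-/- mean. Set against the wild-type minus Uhrf1-/- gap, the 3KR rescue regained 14.01% and the wild-type rescue 94.2%. With 1 library each, neither rescue has a replicate check. With reads pooled over sites, which weights deep sites, wild-type rescue minus wild type was 8.17 points, and -1.69 points when the mitochondrial sites and the 2 deep chromosome 2 starts were left out as well. Without the 2 deep starts on chromosome 2 the 3KR rescue had 14.98%, the wild-type rescue 49.5%, Uhrf1-/- cells 9.57% and wild-type cells 51.9%.

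**Figure D1:**
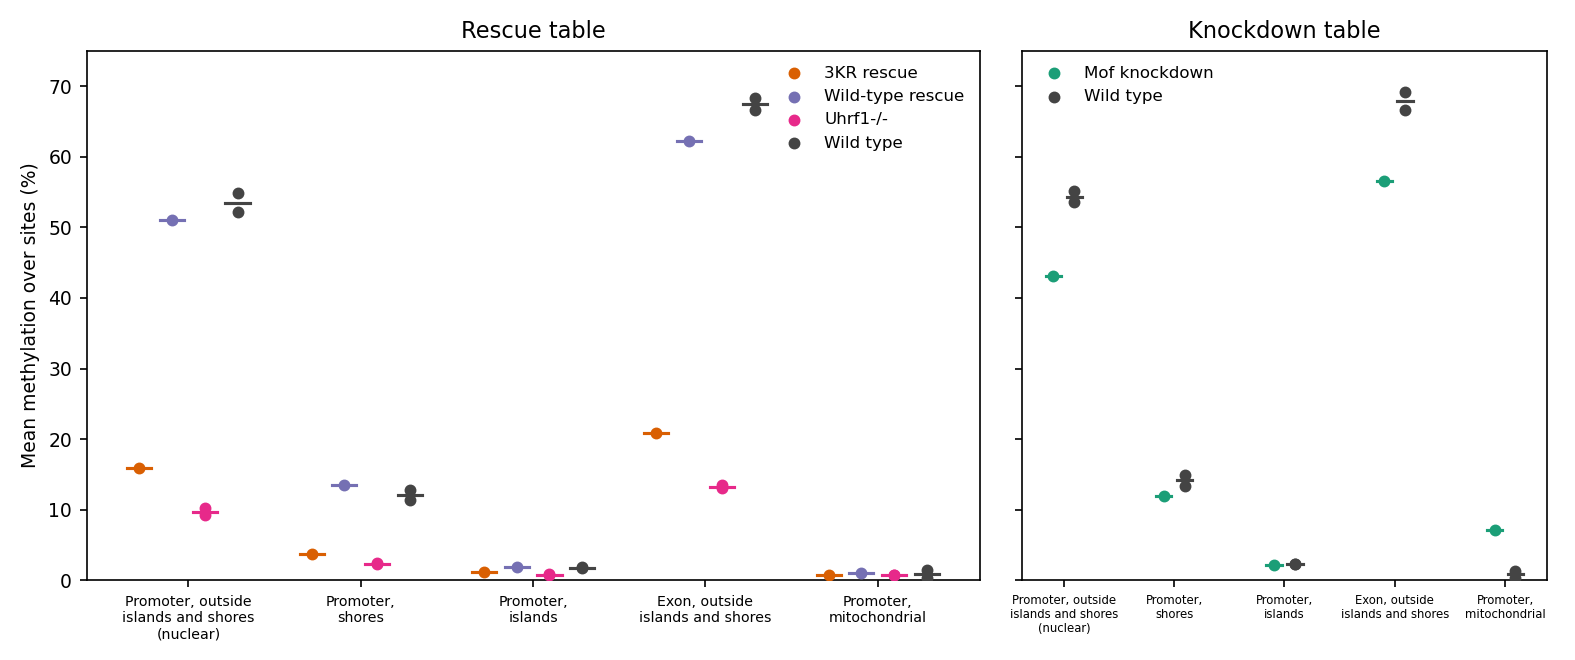
Mean methylation over sites (y axis, percent) by CpG class and library, for the rescue table (left) and the knockdown table (right). Points are libraries and short lines are group means; in nuclear promoter sites outside islands and shores the 3KR rescue (15.9%) lies between the Uhrf1-/- libraries (9.30% and 10.2%) and the wild-type rescue (51.0%).

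The change was also seen in the shares of sites at either end of the range. Among nuclear sites, 0.836% were over 80% methylated in the 3KR rescue, 26.0% in the wild-type rescue, 0% and 0.261% for Uhrf1-/- libraries, and 32.6% and 35.6% in the wild-type libraries. Sites with no methylated read made up 46.1% in the 3KR rescue, 19.2% in the wild-type rescue, 56.3% and 57.7% for Uhrf1-/- libraries, and 27.4% and 22.8% in the wild-type libraries. The wild-type rescue thus had fewer sites at both ends than the wild-type libraries, and its median site had 21 reads, against 10 and 17 in wild type. The part of depth in the shares of any library, the Uhrf1-/- libraries and the 3KR rescue included, was not tested. In bulk cells a site methylated in some cells and a site methylated on some alleles cannot be told apart.

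**Figure D2:**
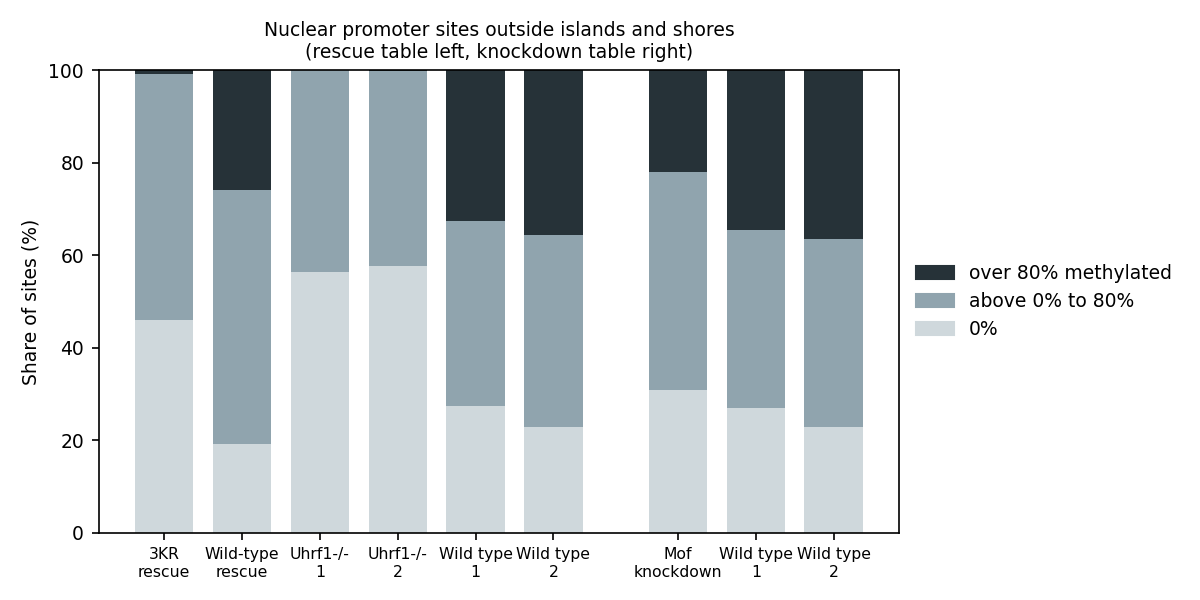
Share of nuclear sites (y axis, percent) with no methylated read, with an intermediate level and over 80% methylated, 1 bar per library. The dark top segment is 0.836% in the 3KR rescue, 26.0% in the wild-type rescue and at most 0.261% in the Uhrf1-/- libraries.

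Promoter sites of the other CpG classes started from lower levels. In islands the means were 1.13% in the 3KR rescue, 1.93% in the wild-type rescue, 0.771% and 0.852% for Uhrf1-/- libraries, and 1.71% and 1.92% in wild-type libraries. In shores they were 3.75% in the 3KR rescue, 13.5% in the wild-type rescue, 2.28% and 2.45% for Uhrf1-/- libraries, and 11.4% and 12.8% in wild-type libraries. Exon sites outside islands and shores were higher, at 20.9% in the 3KR rescue, 62.3% in the wild-type rescue, 13.0% and 13.5% for Uhrf1-/- libraries, and 66.6% and 68.3% in wild-type libraries. The share of the Uhrf1-/- loss regained by the 3KR rescue was 14.01% at promoter sites outside islands and shores, 14.3% in promoter shores and 14.1% in those exons. For the wild-type rescue it was 94.2%, 115% and 90.4% in the same order of classes. In promoter islands, where Uhrf1-/- minus wild type was only -1.003 points, it was 32.1% for the 3KR rescue and 112% for the wild-type rescue. These shares have no error, so the classes were not tested against each other.

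The loss was found on every autosome. The mean of the sites on a chromosome was lower in Uhrf1-/- than in wild-type cells on 19 of 19 autosomes, by differences from -56.6 points on chromosome 16 to -33.9 points on chromosome 3. The 3KR rescue was below the wild-type rescue on 19 of 19. The 3KR rescue was above Uhrf1-/- cells on 18 of 19, at most by 18.3 points on chromosome 2, which holds the 2 deep starts, and 0.492 points below on chromosome 10.

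The level of these sites followed their place in the gene. At starts within 200 bases of a RefSeq start, means over nuclear sites were 11.4% in the 3KR rescue, 40.6% in the wild-type rescue, 6.68% and 7.83% for Uhrf1-/- libraries, and 40.1% and 42.7% in wild-type libraries. At starts inside a RefSeq gene they were 17.6% in the 3KR rescue, 57.9% in the wild-type rescue, 10.7% and 11.3% for Uhrf1-/- libraries, and 59.1% and 60.9% in wild-type libraries. Every library was higher at the starts inside genes. The gap is a description over sites that share starts, with no test.

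By distance, the lowest bin lay next to the start in every group mean, but levels did not rise steadily with distance. Uhrf1-/- cells had 8.36% at 250 to 500 bases downstream, below their 9.72% up to 250 bases upstream. Wild-type cells had 58.5% at 500 to 750 bases upstream, above their 55.5% at 750 to 1000 bases upstream. The 3KR rescue had 13.5% up to 250 bases upstream and 13.3% up to 250 bases downstream, with 18.9% at 750 to 1000 bases upstream and 18.95% at 750 to 1000 bases downstream. The wild-type rescue had 45.7%, 44.9%, 51.9% and 61.2% in those 4 bins. Both rescues were thus lower beside the start than far from it. Uhrf1-/- cells had 9.72% ± 0.372, 7.24% ± 0.490, 13.0% ± 1.55 and 11.7% ± 0.0344 in the same bins, and wild-type cells 48.6% ± 1.31, 47.7% ± 0.669, 55.5% ± 0.477 and 62.4% ± 3.59 (SD, n = 2 each).

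**Figure D3:**
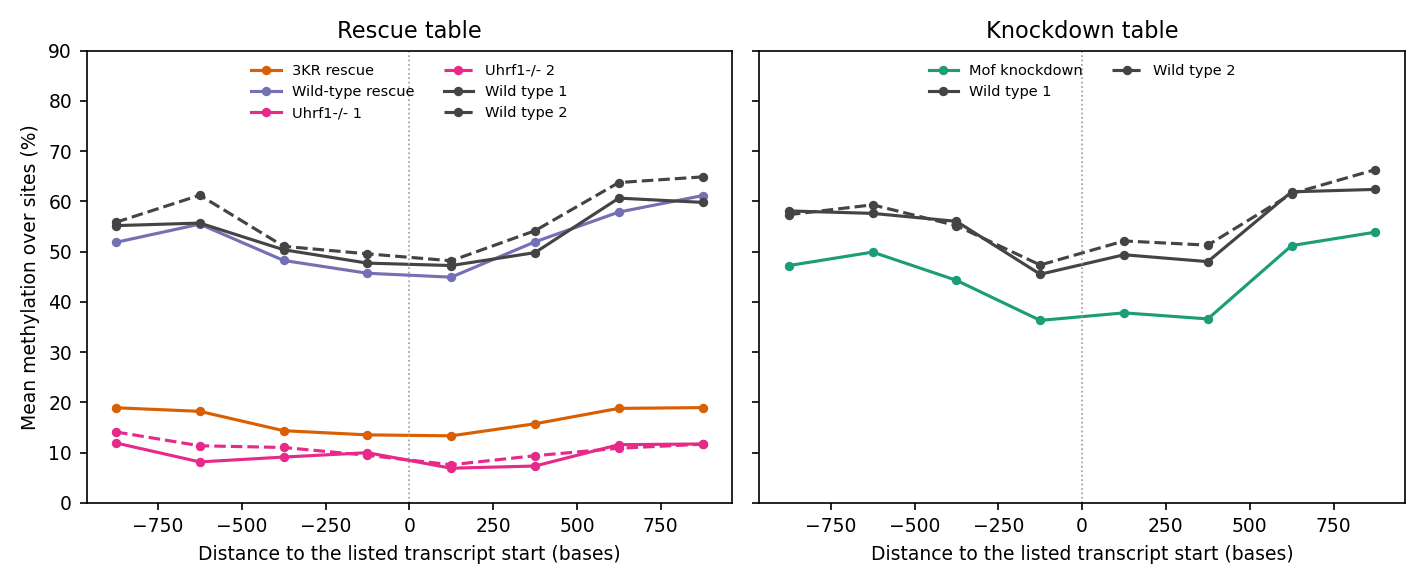
Mean methylation over nuclear sites (y axis, percent) in bins of 250 bases around the listed transcript start (x axis, bases, negative upstream), 1 line per library. The wild-type lines are lowest beside the start and highest downstream; the Mof knockdown (right) is below both wild-type libraries in every bin.

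Averaged over all sites, upstream and downstream differed little. The 902 upstream sites minus the 1050 downstream sites gave -0.390 points in the 3KR rescue, -2.21 points in the wild-type rescue, 0.996 and 1.62 points for Uhrf1-/- libraries, and -0.954 and -1.88 points in the wild-type libraries. The Uhrf1-/- libraries were thus slightly higher upstream and the wild-type libraries slightly lower. In the knockdown table the difference was -0.461 points in the Mof knockdown, against -1.27 and -2.79 points in the wild-type libraries. No test was made over sites, and the sign of several of these values turned under other settings. By kind of start, the sides differed more in wild-type cells of the rescue table (nuclear sites, not tested). Upstream and downstream means were 38.2% and 43.9% at RefSeq starts, 56.5% and 63.4% inside RefSeq genes, and 48.3% and 59.8% outside them. Upstream was the higher side inside genes whose strand was not compared (66.0% and 53.8%) and antisense to genes (69.0% and 52.9%).

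At single sites, Uhrf1-/- and wild-type cells were compared by a quasi-likelihood fit (edgeR) of their methylated against unmethylated reads. A call needed a difference of 20 points or more and an adjusted p (Benjamini-Hochberg, whole table) below 0.05. Of 478 promoter sites tested, 214 (44.8%) were lower in Uhrf1-/- cells, while 38.1% of all 3917 sites tested in the table were lower. None was called higher, of the promoter sites or of the table; at an unadjusted p under 0.05, 1 promoter site was higher and 282 were lower, and limma on percentages called 1 higher. Upstream sites were called in 106 of 236 cases and downstream sites in 108 of 242. Without the 2 deep starts 183 of 445 sites were lower. By size alone, 347 of 524 promoter sites were 20 points or more lower in Uhrf1-/- cells and 1 was higher, beside 54.6% and 0.0652% of all sites. In the authors' deposited table, 1306 of 1952 promoter sites (66.9%) were at least 20 points lower in Uhrf1-/- cells with a q-value under 0.05 and 5 were higher, beside 61.3% and 0.269% of all sites.

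The same test on reads summed per start, for starts that had 3 or more sites with 10 reads, called 46 of 75 starts (61.3%) lower in Uhrf1-/- cells, beside 27.4% of all 241 promoters tested. None was higher, and none reached an unadjusted p under 0.05 in that direction. The median difference was -51.6 points at these starts and -2.68 points over all promoters tested, most of which lie in islands or shores. When 1 library was left out, 20 starts were called without wild-type replicate 1, 17 without wild-type replicate 2, 38 without Uhrf1-/- replicate 1 and 43 without Uhrf1-/- replicate 2. The site count ran from 0 to 28 when any 1 library was left out: 28 without wild-type replicate 1, 25 without wild-type replicate 2, 2 without Uhrf1-/- replicate 1 and 0 without Uhrf1-/- replicate 2.

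Start by start, 54 nuclear starts had at least 3 sites with at least 10 reads in all 6 libraries. In wild-type cells 12 of them were under 20% methylated, 25 lay between 20% and 80%, and 17 were over 80%. Both Uhrf1-/- libraries were below both wild-type libraries at 45 of the 54 and above both at 1, beside 42.8% below and 4.48% above over all 201 nuclear promoters of that depth. The median start had 15.5% in the 3KR rescue, 59.0% in the wild-type rescue, 9.90% in Uhrf1-/- cells and 66.3% in wild-type cells.

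**Figure D4:**
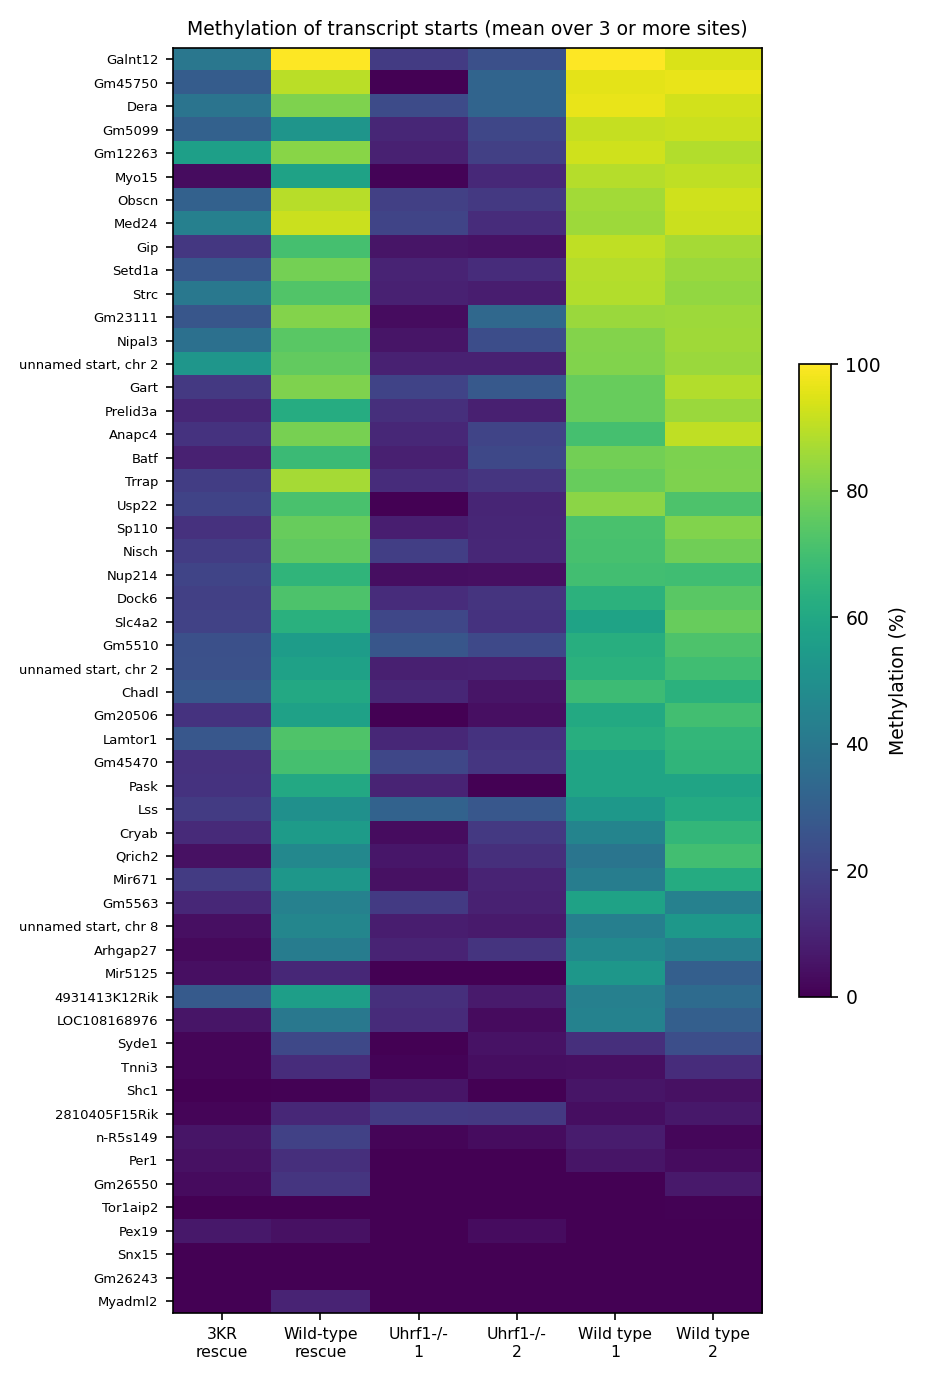
Methylation (colour, percent) of the 54 nuclear starts with at least 3 well covered sites (rows, sorted by the wild-type mean, highest at the top) in the 6 libraries of the rescue table (columns). Starts are named by RefSeq gene where 1 covers them; the Uhrf1-/- columns reach at most 33.9%, and the 3KR column stays close to them in most rows.

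Called falls were ranked over sites with at least 10 reads in all 6 libraries. The largest was at a start inside Myo15, the myosin of the hair-cell stereocilia (5 sites, chromosome 11, 60479828 to 60479909). It had 3.33% in the 3KR rescue, 57.8% in the wild-type rescue, 1.05% and 11.7% for Uhrf1-/- cells, and 88.9% and 90.4% in wild-type cells (edgeR adjusted p = 2.7e-06). Over all 8 listed sites of this start, the 3KR rescue had 14.6% and the wild-type rescue 68.1%. Uhrf1-/- cells had 0.658% and 7.31% over those sites, and wild-type cells 90.6% and 75.9%. A start inside Gip, the gene of an incretin hormone of the gut (4 sites, chromosome 11, 96024883 to 96024942), had 16.2% in the 3KR rescue, 70.7% in the wild-type rescue, 5.72% and 5.00% for Uhrf1-/- cells, and 90.4% and 86.4% in wild-type cells (edgeR adjusted p = 4.5e-06). In both, the 2 groups lay far apart and the wild-type rescue fell short of both wild-type libraries. The edgeR test needed 10 reads only in the Uhrf1-/- and wild-type libraries. Over the sites it used, the difference was -81.6 points at Myo15 and -83.0 points at Gip.

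Strc encodes stereocilin, another hair-cell protein. A start inside it (7 sites, chromosome 2, 121375179 to 121375301) had 40.2% in the 3KR rescue, 72.7% in the wild-type rescue, 9.24% and 7.89% for Uhrf1-/- cells, and 88.6% and 83.9% in wild-type cells (edgeR adjusted p = 3.0e-05). Setd1a encodes a histone H3 lysine 4 methyltransferase; a start inside it (7 sites, chromosome 7, 127785010 to 127785111) had 27.3% in the 3KR rescue, 79.1% in the wild-type rescue, 9.81% and 12.9% for Uhrf1-/- cells, and 88.7% and 84.9% in wild-type cells (edgeR adjusted p = 1.2e-05). The other starts among the 8 largest called falls were in or at Gm45750, Galnt12 (an enzyme that begins O-linked glycosylation), Gm12263 and Gm5099. At Gm45750 (4 sites, chromosome 8) the Uhrf1-/- libraries were far from each other, at 0% and 32.1%, against 95.8% and 96.8% in wild-type cells. The strands of gene and start were not compared for Galnt12, Gm12263, Dera, Prelid3a, Med24, Slc20a2, Kmt2b, Scrib, Gm45575, Spi1, Gata4 and H19. Galnt12 lost its call without wild-type replicate 1, with an edgeR adjusted p of 0.10.

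Some starts kept more methylation without Uhrf1. A start inside Lss, which makes lanosterol in sterol synthesis (3 sites, chromosome 10, 76541084 to 76541162), was the highest, at 31.5% and 27.3% in Uhrf1-/- cells against 53.3% and 61.1% in wild-type cells, and was not called (edgeR adjusted p = 0.33). The 3KR rescue had 17.5% there and the wild-type rescue 50%. Starts at or inside Dera (a deoxyribose-phosphate aldolase), Gm5510 and Gart (an enzyme of purine synthesis) averaged 27.5%, 24.6% and 23.9% in Uhrf1-/- cells, against 94.9%, 67.4% and 82.6% in wild-type cells. Of these, Dera alone passed the test (edgeR adjusted p = 0.00036, and 0.054 and 0.064 without wild-type replicates 1 and 2), with Gm5510 at 0.086 and Gart at 0.19. At the 2810405F15Rik start, 6 sites had 16.8% and 16.7% in Uhrf1-/- cells against 3.70% and 6.28% in wild-type cells; this is the only one of the 54 with both Uhrf1-/- libraries above both wild-type libraries, chosen after its values were seen, and it was not called (edgeR adjusted p = 0.30).

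The wild-type rescue came back above the knockout at most starts. It was above both Uhrf1-/- libraries at 49 of 54 starts, and below both at 1, beside 61.2% and 3.48% of all 201 promoters. Against wild type it was below both libraries at 23 starts and above both at 13, beside 22.4% and 33.8% of all promoters. The shortfall was largest at Gm5099 (4 sites, chromosome 1, 38132421 to 38132483), with 52.1% in the wild-type rescue against 91.2% and 92.0% in wild-type cells, and next at Myo15. At the microRNA gene Mir5125 (4 sites, chromosome 17, 23823021 to 23823116) it had 11.1%, against 52.8% and 30.1% in wild-type cells, and at a start inside Prelid3a, a lipid transfer protein gene, it had 62.0%, against 76.9% and 85.1% in wild-type cells.

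The excess over wild type was largest at 4931413K12Rik (3 sites, chromosome 11, 75594281 to 75594384), with 55.9% in the wild-type rescue against 43.4% and 35.1% in wild-type cells. Upstream of n-R5s149, a 5S ribosomal RNA gene (23 sites, chromosome 8, 123622096 to 123622230), it had 19.2%, against 7.45% and 1.89%. Since 5S genes exist in near-identical copies, reads there may come from other copies. Gm26550 and Myadml2 followed, at 15.3% and 10% in the wild-type rescue against wild-type means of 3.37% and 0%. By site, 137 of 825 with at least 10 reads lay 20 points or more under wild type in this rescue and 84 lay over it, or 16.6% and 10.2%, beside 17% and 8.56% of all sites. That count sets 1 library against a mean of 2. Against single wild-type libraries, this rescue was lower at 17.6% (replicate 1) and 21.4% (replicate 2) of promoter sites. It was higher at 15.5% and 11.7%. Over all sites, 18.7% and 22.4% were lower, and 12.05% and 9.87% higher. Between the 2 wild-type libraries, 139 of 901 were lower and 84 higher in replicate 1, or 15.4% and 9.32%, beside 13.3% and 9.07% of all sites.

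The 3KR rescue stayed near the Uhrf1-/- level. Of 1302 sites with at least 10 reads in both rescues, 829 (63.7%) lay 20 points or more under the wild-type rescue in the 3KR rescue and 10 lay over it by as much, beside 57% and 0.966% of all sites. Fisher's exact test (adjusted over the table) called 710 of these sites (54.5%) lower and 3 higher, beside 46.8% and 0.378% of all sites; it compares the 2 libraries, not the conditions. At the 54 starts the 3KR rescue was the lower of the 2 at 50, beside 66.2% of all promoters. Against Uhrf1-/- cells, 144 of 844 sites (17.1%) exceeded the knockout mean by 20 points or more in the 3KR rescue and 19 fell short of it, beside 15.8% and 2.8% of all sites. Fisher's exact test against Uhrf1-/- replicate 1 called 57 of 1119 sites higher and 1 lower, beside 2.97% and 0.336% of all sites, and against replicate 2 it called 51 of 976 higher and 1 lower, beside 2.43% and 0.14%. For scale, 91 of 1056 sites were that much lower and 67 higher in Uhrf1-/- replicate 1 than in replicate 2, beside 8.41% and 7.55% of all sites. At the starts the 3KR rescue was above both Uhrf1-/- libraries at 28, below both at 7 and between or level with them at 19, beside 36.8% above and 10.4% below over all promoters. The wild-type rescue exceeded Uhrf1-/- cells by that much at 634 of 922 sites and fell under them at 4, beside 61% and 0.122% of all sites.

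Where the 3KR rescue was above Uhrf1-/- cells it still lay under the wild-type rescue at the starts named here. The largest gap was at the chromosome 2 start with the deep coverage (21 sites, 98666682 to 98667255), with 52.4% in the 3KR rescue, 75.9% in the wild-type rescue, 9.19% and 8.997% for Uhrf1-/- cells, and 81.2% and 85.1% in wild-type cells. Reads over these 21 sites numbered 13787 in the 3KR rescue, 6505 in the wild-type rescue, 50855 and 73105 for Uhrf1-/- libraries, and 1243 and 5527 in wild-type libraries. No RefSeq gene covers this start. Whether all these reads come from this place in the genome was not tested, nor was the part of uneven depth. A start inside Gm12263 (3 sites, chromosome 11, 59476402 to 59476423) had 56.5% in the 3KR rescue, 82.3% in the wild-type rescue, 9.37% and 19.05% for Uhrf1-/- cells, and 92.6% and 88.4% in wild-type cells. Strc, Med24 (a Mediator subunit; 7 sites, 43.7% in the 3KR rescue against 20.4% and 12.7% in Uhrf1-/- cells) and a start antisense to Nipal3 (37.1% against 5.56% and 23.8%) came next.

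Among starts at least 50% methylated in the wild-type rescue, the 3KR rescue came nearest to it at Gm5099 (30.9% in the 3KR rescue, 52.1% in the wild-type rescue), the deep chromosome 2 start, Gm12263 and 4931413K12Rik (28.2% in the 3KR rescue, 55.9% in the wild-type rescue). Gm5099 was also the start where the wild-type rescue was farthest under wild type.

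The Mof knockdown library was lower than wild type over the same class of sites. Mean methylation over the 2393 sites of the knockdown table was 42.5% in the Mof knockdown, against 52.6% and 54.1% in the wild-type libraries, a difference of -10.8 points that ran from -11.6 to -10.1 over the 2 library pairs. Over nuclear sites it was 43.2%, against 53.5% and 55.1%. The knockdown library was below both wild-type libraries by more than the gap between them, with no replicate of its own. With reads pooled over sites the difference was 3.07 points, and -11.3 points when the mitochondrial sites and the 2 deep starts were left out as well. The nuclear share of sites over 80% methylated was 21.9% in the knockdown, against 34.6% and 36.5% in wild type. In promoter islands the means were 2.19% in the knockdown and 2.39% and 2.38% in wild type, in shores 11.9% and 13.4% and 15.0%, and in exons outside islands and shores 56.6% and 66.7% and 69.1%.

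The knockdown was below wild type on 19 of 19 autosomes, from -21.1 points on chromosome 13 to -6.61 points on chromosome 6, and in all 8 distance bins. At starts within 200 bases of a RefSeq start it had 34.0%, against 42.0% and 43.5% in wild type, and at starts inside a RefSeq gene 48.4%, against 60.1% and 60.5%. By site, 206 of 796 (25.9%) were at least 20 points lower in the knockdown and 27 higher, beside 21.2% and 4.34% of all sites. Between the wild-type libraries 151 of 1069 were lower and 117 higher in replicate 1, beside 13.9% and 8.91% of all sites. In the authors' deposited table, 367 of 2393 promoter sites (15.3%) were at least 20 points lower at a q-value under 0.05, beside 12.3% of all sites, and 36 were higher, beside 1.98% of all sites.

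Of 122 nuclear starts with enough sites, the knockdown was below both wild-type libraries at 80, above both at 6 and between them or level at 36, beside 41.5% below and 12.9% above over all 364 promoters. The median start had 52.8% in the knockdown and 66.5% in wild type.

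**Figure D5:**
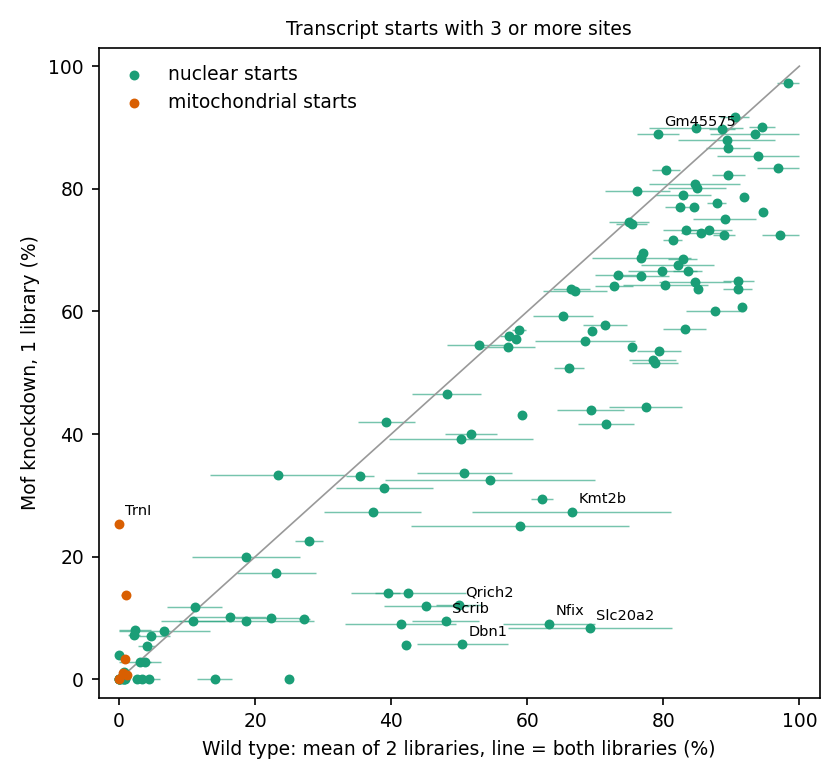
Each point is a start with at least 3 well covered sites in the knockdown table: the Mof knockdown (y axis, percent) against the mean of the wild-type libraries (x axis, percent), with a horizontal line joining the 2 wild-type values and a diagonal of equality. Slc20a2 and Nfix lie farthest under the diagonal at 8.33% and 9.09%, and the mitochondrial TrnI start lies above it at 25.4%.

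Of the starts below both wild-type libraries, the 6 farthest below their mean lay inside genes, except Qrich2. A start inside Slc20a2, a phosphate transporter gene (4 sites, chromosome 8, 22506629 to 22506772), had 8.33% in the Mof knockdown, against 81.3% and 57.2% in wild type. Nfix, a nuclear factor I transcription factor gene (4 sites, chromosome 8, 84713824 to 84713935), had 9.09%, against 70.0% and 56.4%. Both rest on 45 to 47 knockdown reads. Starts inside Dbn1, the gene of the actin-binding drebrin (5.71% against 57.1% and 43.7%), and Kmt2b, a histone H3 lysine 4 methyltransferase gene (27.4% against 51.9% and 81.2%), were also below both wild-type libraries. So were a start inside Scrib, a cell polarity scaffold gene (9.52% against 43.0% and 53.0%), and 1 of the 2 listed Qrich2 starts (12.1% against 46.6% and 53.3%).

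Among the 4 starts farthest above the wild-type mean, of those above both wild-type libraries, 2 were nuclear. A start inside Gm45575 had 88.9% in the Mof knockdown, against 76.2% and 82.4% in wild type, and a start inside Pik3cd, the leukocyte PI3-kinase delta gene, had 8%, against 0% and 4.76%. The other 2 were mitochondrial and larger. Upstream of the isoleucine tRNA gene TrnI, 4 sites (3402 to 3456) had 25.4% in the knockdown over 54 reads, against 0% and 0% in wild type, and 5 sites downstream of the 16S rRNA start mt-Rnr2 (1636 to 1872) had 13.8%, against 1.67% and 0.271%. Reads pooled over all 43 mitochondrial sites were 3.25% methylated in the knockdown (95% Wilson interval 2.63% to 3.997%), against 0.825% and 0.626% in wild type; in the rescue table no library exceeded 1.02%. These sites are read here as a measured level only, and whether conversion differed in that library was not tested.

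Genes of known tissues and pathways met this class of sites only in small numbers. Of 45 germline genes silenced by promoter methylation, 26 pluripotency genes, 22 placental genes, 23 genes of the methylation machinery, 23 housekeeping genes and 13 genes of the 2-cell stage, none had such a site in the rescue table. The lists with members were imprinted genes (3 genes of 42), lineage transcription factors (2 of 49), immune and blood cell genes (4 of 67), liver, gut and kidney genes (3 of 52), muscle and heart genes (3 of 48), brain and sense organ genes (3 of 57) and skin genes (1 of 52). With any number of sites, 1 of 1 imprinted, 1 of 1 immune, 1 of 3 liver, gut and kidney, 0 of 1 muscle and 3 of 4 brain and sense organ starts were lower by the edgeR test and none was higher, beside 24.3% of all 477 promoters and 50.6% of 172 starts of this class. The median start of the brain and sense organ list had 13.96% in the 3KR rescue, 70.7% in the wild-type rescue, 7.21% in Uhrf1-/- cells and 84.1% in wild-type cells, beside 12.5%, 57.8%, 7.88% and 66.7% over all 656 nuclear starts. In the knockdown table its median was 65.2% in the Mof knockdown and 87.3% in wild type, beside 44.7% and 65.9% over all 782 nuclear starts.

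Slc17a7, a vesicular glutamate transporter gene of that list, had a start with 4 sites (chromosome 7, 45168501 to 45168559) that the wild-type rescue left at 0%. It had 2.08% in the 3KR rescue, 0% in both Uhrf1-/- libraries, and 16.9% and 27.6% in wild-type cells. At its other start (3 sites, chromosome 7, 45170124 to 45170151) the wild-type rescue lay between the wild-type libraries: the 3KR rescue had 13.3%, the wild-type rescue 93.3%, Uhrf1-/- cells 20.7% and 26.7%, and wild-type cells 100% and 90.5%. Usp7, whose product is a deubiquitinase that binds UHRF1, was the machinery gene with sites in the knockdown table: 5 sites inside it (chromosome 16, 8696731 to 8696878) had 70% in the Mof knockdown, against 85% and 72% in wild type.

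The 4 sites at the RefSeq start of the chemokine gene Ccl22 (chromosome 8, 94745037 to 94745125) had 3.57% in the 3KR rescue, 85.4% in the wild-type rescue, 0% and 3.13% for Uhrf1-/- cells, and 74.2% and 78.8% in wild-type cells. In the knockdown table they had 56.9% in the Mof knockdown. At Elane and Il15ra, of the same immune list, the wild-type rescue lay under both wild-type libraries. At 2 sites of Elane, the neutrophil elastase gene, methylation was 12.5% in the 3KR rescue, 0% in the wild-type rescue and both Uhrf1-/- libraries, and 63.3% and 40% in wild-type cells, with 26.8% in the Mof knockdown. At 3 sites of Il15ra, the interleukin-15 receptor alpha gene, it was 0% in the 3KR rescue, 18.3% in the wild-type rescue, 15.7% and 0% for Uhrf1-/- cells, and 44.4% in both wild-type libraries, with 11.1% in the Mof knockdown. Lck, a T-cell kinase gene, was at 0% in every library. The median over the 4 starts was 1.79% in the 3KR rescue, 9.16% in the wild-type rescue, 0.781% for Uhrf1-/- cells and 48.1% in wild type; for the knockdown comparison it was 18.9% in the Mof knockdown and 48.1% in wild type. A start inside Ebf3, a transcription factor gene of the lineage list (6 sites, chromosome 7, 137227519 to 137227638), had 13.8% in the 3KR rescue, 84.2% in the wild-type rescue, 11.1% and 48.8% for Uhrf1-/- cells, and 91.7% and 82.8% in wild-type cells. The Uhrf1-/- libraries were far apart there, and the Mof knockdown had 46.5%, against the same 91.7% and 82.8% in wild type. The other lineage starts in the knockdown comparison fell less or not at all. The Mof knockdown had 69.2% at Hnf4a (wild type 82.6% and 86.3%) and 64.2% at Pax6 (80.8% and 73.9%). It had 71.7% at Spi1 (72.6% and 81.2%), and Gata4 was at 0% in each library. The list median was 64.2% in the Mof knockdown and 77.3% in wild type, beside 44.7% and 65.9% over all nuclear starts.

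The imprinted H19 gene had 4 sites (chromosome 7, 142575795 to 142575968) with 5.49% in the 3KR rescue, 36.9% in the wild-type rescue, 12.9% and 3.13% for Uhrf1-/- cells, and 70.8% and 55.6% in wild-type cells. The Mof knockdown had 36.1% at these sites, below both wild-type libraries. At the RefSeq start of Mest, which is imprinted too, 3 sites (chromosome 6, 30733753 to 30733762) had 11.1% in the 3KR rescue, 55.7% in the wild-type rescue, 11.1% and 23.8% for Uhrf1-/- cells, and 44.4% and 57.1% in wild-type cells. The wild-type rescue thus lay under wild type at H19 and between the wild-type libraries at Mest. At the 1 site inside Gnas the wild-type rescue had 15.4%, and every other library of the rescue table had 0%. At 2 starts of Meg3, an imprinted noncoding RNA, the knockdown had 36.6%, against 78.7% and 70.4%, and 66.7%, against 50% and 59.9%, so 1 start lay below and 1 above both wild-type libraries. Each of these starts rests on fewer than 7 sites, and none was tested in the knockdown table.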

How the data were processed

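The members, gene lists and tests were chosen with earlier results of these data known. Tools named by the submitters' processing notes are BSMAP 2.73, Trim Galore and cutadapt, with build mm10. Not given in the sources used here: step order, settings, the methylation caller, and which test gave the deposited p-values. The authors deposited read counts per cytosine (total, methylated, unmethylated), the fraction methylated, and a p-value, q-value and difference (a score in percentage points) for each group against wild type. Levels here are 100 times methylated over total reads; every listed promoter site had at least 5 reads per library. Wild-type reads are the same libraries in both tables, which were used apart.

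Library means are unweighted over sites. Negative distances are upstream: the implied start differed by at most 2 bases among sites of a start when read so. Single sites and starts (reads summed) were tested with edgeR 4.0.16 (glmQLFTest, R 4.3.3) in a fit to the 6 rescue-table libraries. The spread came from the 2 Uhrf1-/- and 2 wild-type libraries, since each rescue had 1 library. Sites had 10 or more reads in each Uhrf1-/- and wild-type library, and p-values were adjusted across every site or promoter fitted. The test was tried on simulated data. Single-library groups were counted by a 20-point rule; Fisher's exact test was run between pairs of libraries. The labels do not say that replicates were separate cultures, so p-values measure only how these libraries vary, possibly for technical reasons; their chi-square per site was 2.10 between Uhrf1-/- and 2.94 between wild-type libraries. Wilson intervals cover counting error only, since reads carry no molecular identifiers. Named starts have at least 3 sites with at least 10 reads in every library: the 8 largest called falls, the 4 highest in Uhrf1-/-, the 4 largest excesses and shortfalls of the wild-type rescue, the 5 largest gaps of 3KR rescue over Uhrf1-/-, the 4 where 3KR came nearest to the wild-type rescue, and the 6 largest falls and 4 largest rises of the Mof knockdown (excesses, shortfalls, falls and rises against wild type only where outside both wild-type libraries). No start had at least 2 such sites on both sides. Gene names are RefSeq (GRCm38.p6) symbols matched by position; list members and window examples were named after their values were seen. Alternatives changed read minimums, pooling, distance, block, tool and libraries. Python 3.11.15, numpy 2.4.6, pandas 2.3.3, scipy 1.17.1, matplotlib 3.10.9 and limma 3.58.1 were also used.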

Additional observations from a re-analysis of the deposited data

Results flagged for a closer look

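The mean difference between upstream and downstream promoter sites had opposite signs in Uhrf1-/- and wild-type cells. Both Uhrf1-/- libraries were higher upstream (0.996 and 1.62 points) and both wild-type libraries were lower upstream (-0.954 and -1.88 points), so that the Uhrf1-/- mean exceeded the wild-type mean by 2.72 points. Over nuclear sites alone the gap was 3.79 points, with 0.822 and 1.44 points in the Uhrf1-/- libraries and -2.15 and -3.18 points in the wild-type libraries. The difference between the groups was not tested. With at least 10 reads in every library the Uhrf1-/- value was negative, at -0.578 points.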

How the results depend on the processing

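Of the summary values, 113 recomputed values stayed within an allowed range, 89 moved and 2 reversed. The range was the spread between replicates, or 1.5 times for a count or share. Where no group involved had a replicate, it was the half-width of a 95% binomial interval of the pooled reads. That width covers counting error only, so small shifts of single-library groups count as moved. Among the values that moved, 12 upstream minus downstream values, none with a test, changed sign. Of the tests of single starts, 92 kept their side of the threshold, 3 lost it and 1 (Gart, with sites of at least 5 reads, edgeR adjusted p = 0.046) gained it. The cause was not tested unless given. Pooling reads over sites, which weights deep sites, gave 19.3% in the 3KR rescue, 54.1% in the wild-type rescue and 45.9% in wild type, and for the knockdown comparison 50.3% in the Mof knockdown and 47.2% in wild type. A pair of differences reversed with it: wild-type rescue minus wild type was 8.17 points and Mof knockdown minus wild type 3.07 points. Pooled, Uhrf1-/- minus wild type was -36.7, wild-type rescue minus Uhrf1-/- 44.9 and 3KR rescue minus Uhrf1-/- 10.13 points. An alternative chosen after seeing the data, pooling reads without the mitochondrial sites and the 2 deep chromosome 2 starts, gave -1.69 points for wild-type rescue minus wild type, -11.3 for Mof knockdown minus wild type, 42.3 for wild-type rescue minus Uhrf1-/- and -36.8 for 3KR rescue minus wild-type rescue.

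With at least 10 reads in every library the means were 16.5% in the 3KR rescue, 49.7% in its wild-type counterpart and 44.1% in the Mof knockdown, with -33.2 points for 3KR rescue minus wild-type rescue and 7.40 points for 3KR rescue minus Uhrf1-/-. With 1 value per start they were 15.9%, 51.4% and 43.7% in the same order, with 54.8% in wild type of the rescue table and 54.9% in that of the knockdown table, and differences of -44.8 points (Uhrf1-/- minus wild type), 41.4 (wild-type rescue minus Uhrf1-/-) and -35.5 (3KR rescue minus wild-type rescue). Without mitochondrial sites the 3 means were 15.9%, 51.0% and 43.2%, with 41.2 points for wild-type rescue minus Uhrf1-/- and -35.1 for 3KR rescue minus wild-type rescue; without the 2 deep starts they were 14.98%, 49.5% and 41.97%.

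The upstream minus downstream values, in points, were the least stable. With at least 10 reads in every library they were -3.12 in the 3KR rescue, -3.09 in the wild-type rescue, -0.578 in Uhrf1-/- and -2.08 in wild type, and -7.30 in the Mof knockdown and -9.64 in wild type. With pooled reads they were -6.35, -5.43, -0.0024 and 8.64, and -15.06 and 5.65, in the same order. For starts with sites on both sides they were 6.49, 7.54, 2.84 and 9.84, and 2.996 and 3.14. Within 500 bases they were 2.03 in Uhrf1-/- and -0.404 in wild type, and 2.14 in the Mof knockdown and -0.554 in wild type. Without mitochondrial sites they were -3.43 (wild-type rescue) and -2.66 in wild type. Without the 2 deep starts they were 0.723 in the 3KR rescue, -1.41 (wild-type rescue) and -0.435 in wild type, and 0.531 in the Mof knockdown.

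By edgeR, 508 promoter sites were lower with at least 5 reads and 32 with at least 20 reads, where fewer sites are tested. Apart from the starts with at least 1 site, the share over all sites or promoters is not given for the counts here. They thus show how calls depend on the setting, and are not a result about this class of sites. A replicate block gave 110, against 194 in the same 4 libraries without it; the deviations of same-numbered libraries correlated at 0.0485, so the numbers are not treated as pairs, and the block left 45 starts called. The higher count was 1 with limma on percentages and with no minimum difference. Starts called were 87 of 172 (50.6%) with at least 1 site, beside 24.3% of all 477 promoters, and 166 with sites of at least 5 reads. Leaving out 1 library gave 0 to 28 sites and 17 to 43 starts.

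The share of sites lower in the 3KR rescue than Uhrf1-/- was 3.996% with at least 5 reads, 0.606% with at least 20 reads and 0.948% at 30 points, where 9.60% were higher. The share lower in the wild-type rescue than wild type was 10.6% with at least 20 reads and 9.45% at 30 points, and the share higher 3.02% and 4.97%. For the Mof knockdown the share lower was 17.0% with at least 20 reads and 16.8% at 30 points, and the share higher 6.98% with at least 5 reads, 0.606% with at least 20 reads and 1.38% at 30 points. Without 1 library, these shares were 4.56% to 4.92% lower and 17.8% to 18.03% higher (3KR rescue against Uhrf1-/-), 17.6% to 21.4% lower and 11.7% to 15.5% higher (wild-type rescue against wild type), and 26.1% to 30.02% lower and 4.10% to 7.15% higher (Mof knockdown against wild type). Differences of means ran from -44.1 to -41.6 points (Uhrf1-/- minus wild type), -3.74 to -1.23 (wild-type rescue minus wild type) and -11.6 to -10.07 (Mof knockdown minus wild type).

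A median of 10 to 21 reads per site limits single-site levels, and the 3KR rescue, wild-type rescue and Mof knockdown have 1 library each.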
